A study of Rattus norvegicus with 6 samples.

Results

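DNA repair genes were described in cultured nucleus pulposus cells, which fill the soft centre of the intervertebral disc, with and without lactate. The 53 members were chosen by gene symbol: genes of homologous recombination, the Fanconi pathway, mismatch repair, nucleotide and base excision repair and end joining, with the kinases that signal DNA damage. Of these, 51 have a row among the 17273 genes of the deposited table. Chek1 and Ercc4 were not analysed here. The 3 control libraries came from untreated wild-type nucleus pulposus cells of male Sprague Dawley rats, and the 3 lactate libraries from the same kind of cells given 10 mM lactate for 8 h. All 6 were grown in serum-containing medium. The labels give no animal age or passage, do not say whether lactate was an acid or a salt, and do not state whether replicates are separate cultures or animals. The p-values therefore reflect the variation among these 6 libraries alone, and that variation may be technical.

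Cells mend each kind of DNA lesion with a separate set of enzymes. Breaks through both strands are either copied from the sister chromatid (homologous recombination, in S and G2 phase) or rejoined directly (end joining, in any phase). Fanconi proteins unhook crosslinks between strands, mismatch repair removes copying errors, and excision repair cuts out damaged bases or bulky adducts. ATM and ATR are the kinases that sense breaks and stalled forks. Many recombination, Fanconi and mismatch genes are transcribed mostly in cycling cells, under E2F factors, whereas excision and end joining genes are active in resting cells as well.

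Libraries held 30291357 to 38989574 counts. Levels are given in CPM (counts scaled to a common library size with TMM factors) and changes as the log2 fold change of lactate over control. A gene was called when the quasi-likelihood test of edgeR gave a Benjamini-Hochberg adjusted p under 0.05 over the 13747 genes tested. The whole transcriptome differed between the groups: 66% of tested genes were called, 31.4% higher and 34.6% lower, and the median gene stood at −0.10. With library totals in place of TMM factors that median moved by −0.86, to −0.96, and 12.5% of genes were called higher and 61.8% lower. Higher and lower are used here for TMM-scaled values, that is, against the middle of all genes. As a check of the cell type, the notochord markers Tbxt and Krt19 had 12 and 9 counts over the control libraries and 0 over the lactate libraries, while aggrecan (Acan) stood at 2393 ± 159 and 2290 ± 183 CPM (SD, n = 3). Over the 10 nucleus pulposus and notochord markers with a row, summed levels were 2530 to 2840 CPM in the untreated cells and 2450 to 2790 CPM after lactate, most of it Acan. Of the 8 tested, Cd24 (2.32) and Sox9 (1.45) were called higher and Foxa2 (−1.97), Cdh2 (−1.11) and Pax1 (−0.88) lower. Acan, Krt8 and Col2a1 were not called, and Col2a1 was near the floor, with 39 counts over the control libraries and 55 over the lactate libraries. The 6 annulus and fibroblast markers summed to 32600 to 38000 and 107000 to 156000 CPM. Most of that was Col1a1, which averaged 31780 CPM in control and 124400 CPM in lactate libraries. Col1a1 (1.97), Col3a1 (1.51) and Thy1 (1.24) were called higher, Mkx (−2.36) and Pdgfra (−1.42) lower, and Scx was not called. The part of cell make-up in the results below was not tested. The 5 macrophage markers summed to at most 10.7 CPM and the 3 endothelial ones to at most 0.680. In bulk RNA, fewer cells of a type and less RNA per cell cannot be told apart.

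Repair genes were lower after lactate more often than higher. Of the 51 members tested, 29 (56.9%) were called lower, 4 (7.84%) higher and 18 were not called, where 34.6% and 31.4% of all genes were. Their median log2 fold change was −0.67. The 4 higher genes were Xrcc3, Msh6, Fance and Bard1. For Xrcc3, Fance and Bard1 a gene whose product binds theirs (Rad51c, Fancf and Brca1) was among the 29. The largest falls were those of Fancf, Brip1 and Brca1. In 33 members all lactate libraries lay below all control libraries and in 6 above, against 38.4% and 33.7% of all genes. Fancf and Brip1 met the minimum count in the control libraries only, so they could be tested only because they were high there. With library totals, where 74.3% of all genes were called, 44 members were lower and 1 (Xrcc3) higher, and the members' median minus that of all genes was −0.58, against −0.57 with TMM.

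**Figure D1:**
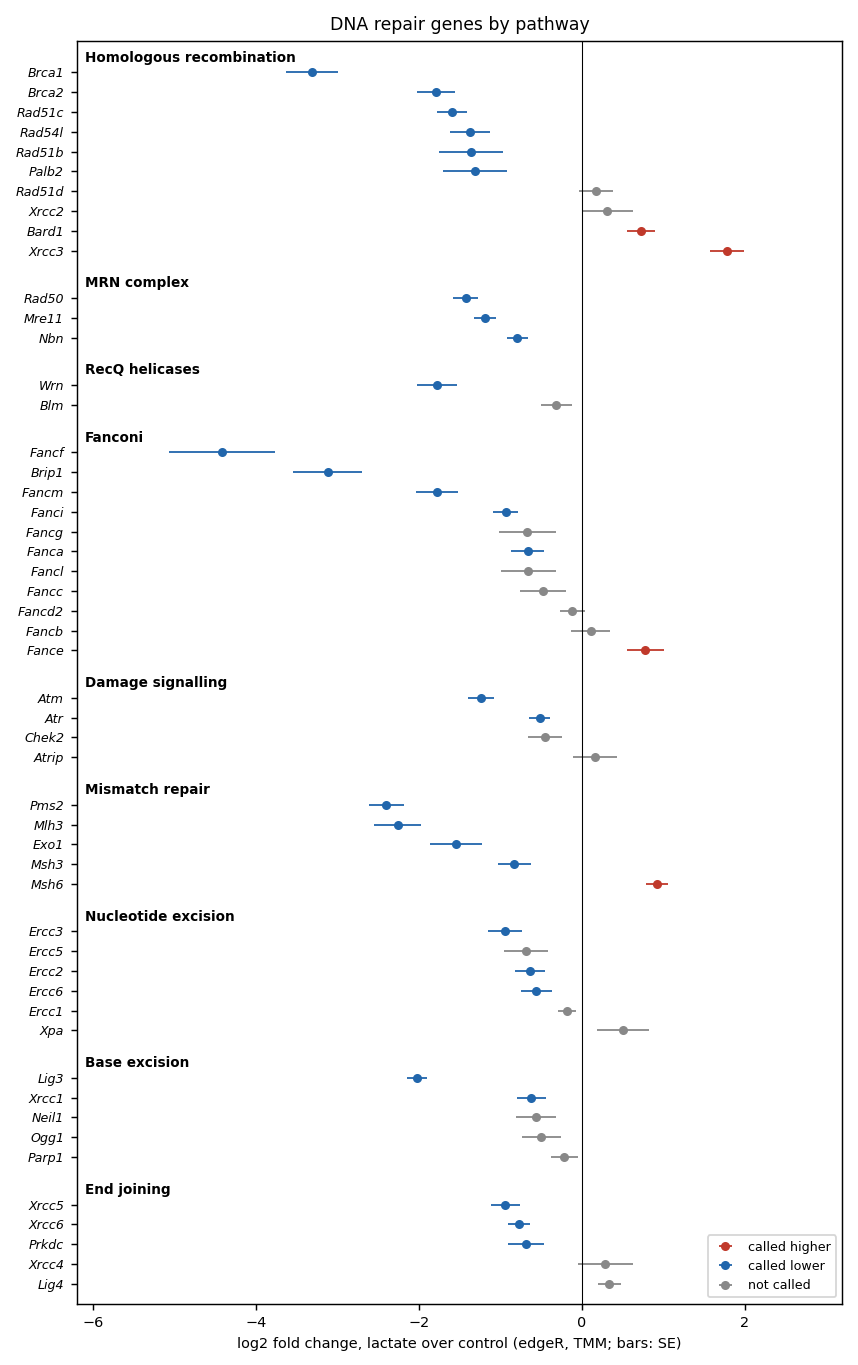
Log2 fold change of lactate over control (horizontal axis) for the 51 repair genes with a row, in 9 groups by role. Points are edgeR estimates with TMM factors and bars are SE derived from the test statistic. Blue genes were called lower (29), red higher (4) and grey were not called (18), with Fancf at −4.42 and Xrcc3 at 1.78 as the extremes.

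Most core genes of homologous recombination fell, except for Xrcc3 and Bard1. Of 10 tested, 6 were lower, 2 higher and 2 not called, with a median log2 fold change of −1.33. Brca1, the ubiquitin ligase subunit that commits a break to recombination, stood at 20.98, 19.1 and 24.6 CPM in the control libraries and 2.27, 1.08 and 3.08 in the lactate libraries. No lactate library came near a control library, and the gene fell by 3.31 ± 0.32 on the log2 scale (SE; edgeR adjusted p = 3.4e-05). Bard1, the obligate partner of BRCA1, went the other way: it stood at 17.9, 14.3 and 20.8 CPM in the control libraries and 29.4, 24.6 and 33.5 in the lactate libraries, and rose by 0.73 ± 0.18 on the log2 scale (SE; edgeR adjusted p = 0.0059). With library totals Bard1 was not called (−0.13). Brca2, which acts after a break has been resected, stood at 10.8, 10.9 and 13.7 CPM in the control libraries and 4.45, 2.59 and 3.18 in the lactate libraries, with every lactate library below every control library (−1.79 ± 0.23, edgeR adjusted p = 0.00017). Palb2, the bridge between BRCA1 and BRCA2, was at −1.30 ± 0.39 (edgeR adjusted p = 0.017), a call that was lost without control replicate 1 (0.052), control replicate 3 (0.058) or lactate replicate 1 (0.060).

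Rad51b, Rad51c, Rad51d, Xrcc2 and Xrcc3, whose products assemble with each other, did not move as a block. Rad51c stood at 9.23, 7.59 and 9.48 CPM in the control libraries and 3.04, 2.77 and 2.901 in the lactate libraries, without overlap, and fell by 1.59 ± 0.19 on the log2 scale (SE; edgeR adjusted p = 9.4e-05). Its direct partner Xrcc3 stood at 1.97, 2.05 and 2.33 CPM in the control libraries and 7.08, 8.37 and 6.43 in the lactate libraries. All 3 lactate libraries were above all controls, and the gene rose by 1.78 ± 0.21 on the log2 scale (SE; edgeR adjusted p = 9.4e-05), the only member called higher with library totals as well (0.91). Xrcc3 overlaps Klc1 in the rat annotation, and Klc1 was called lower (−1.16 ± 0.12, edgeR adjusted p = 5.2e-05). Rad51b was low throughout and fell by 1.36 ± 0.39 (edgeR adjusted p = 0.014, and 0.058 without control replicate 1). Rad51d (0.17 ± 0.21) and Xrcc2 (0.31 ± 0.31), which bind each other, were not called, and Xrcc2 was at −0.14 without lactate replicate 3. Rad54l, a DNA-dependent motor protein, stood at 8.31, 6.49 and 8.25 CPM in the control libraries and 2.81, 2.21 and 3.85 in the lactate libraries and fell by 1.37 ± 0.25 on the log2 scale (SE; edgeR adjusted p = 0.0012).

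All 3 subunit genes of the MRN complex, which holds broken ends and activates ATM, fell. Rad50, the tether, stood at 37.1, 42.95 and 46.6 CPM in the control libraries and 14.97, 13.7 and 18.4 in the lactate libraries, and fell by 1.43 ± 0.15 on the log2 scale (SE; edgeR adjusted p = 5.7e-05). Mre11, the nuclease, stood at 33.5, 28.2 and 29.8 CPM in the control libraries and 13.7, 14.6 and 12.02 in the lactate libraries, and fell by 1.18 ± 0.13 on the log2 scale (SE; edgeR adjusted p = 7.9e-05). Neither gene had a lactate library within the range of the controls. Nbn, which brings ATM to the complex, stood at 34.8, 36.8 and 35.7 CPM in the control libraries and 22.6, 22.01 and 17.5 in the lactate libraries and fell less, by 0.79 ± 0.13 (edgeR adjusted p = 0.00071). Of the RecQ helicases, which unwind recombination intermediates, Wrn stood at 18.4, 20.8 and 19.9 CPM in the control libraries and 6.62, 3.53 and 7.06 in the lactate libraries, with lactate replicate 2 the lowest, and fell by 1.77 ± 0.24 on the log2 scale (SE; edgeR adjusted p = 0.00025). Blm was not called (−0.31 ± 0.19, edgeR adjusted p = 0.19): its lactate libraries, at 11.8, 8.42 and 13.7 CPM, overlapped the controls at 12.5, 14.5 and 15.1.

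**Figure D2:**
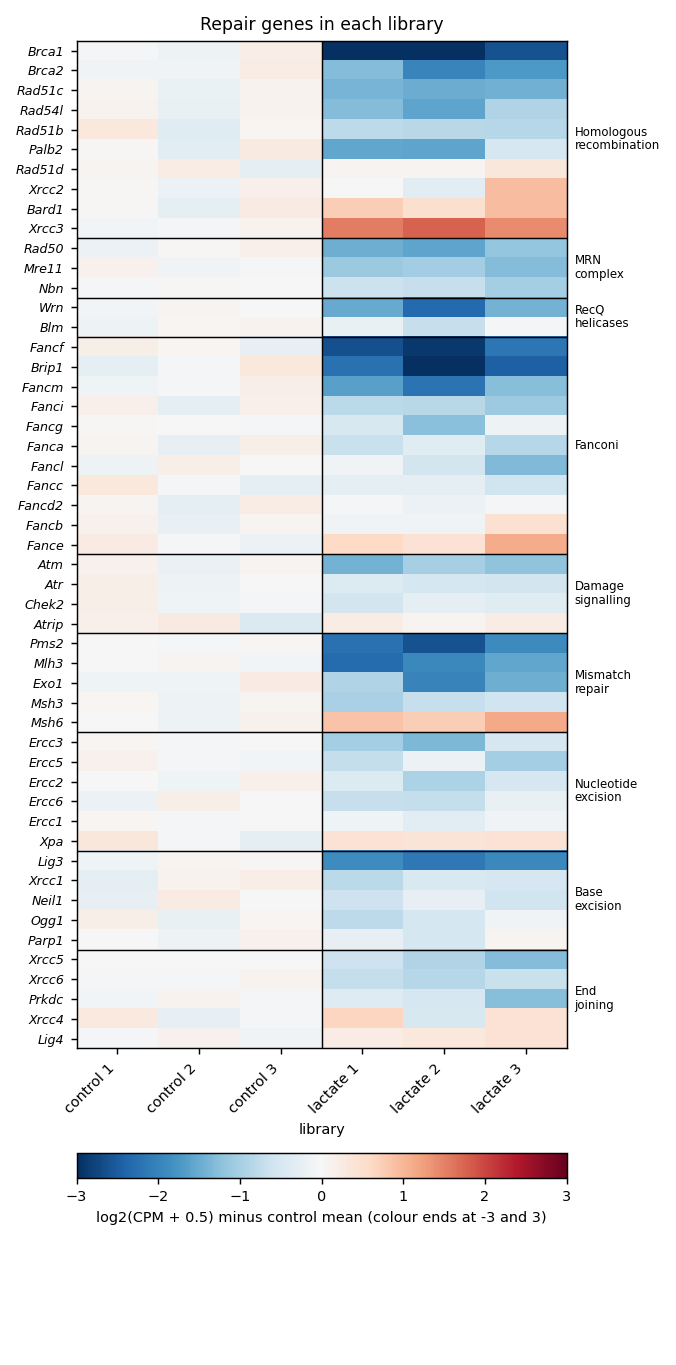
Level of each repair gene in each of the 6 libraries, as log2(CPM + 0.5) minus the mean of the 3 control libraries (colour, blue lower and red higher). Rows are the 51 genes in 9 groups and columns are libraries. The 3 lactate libraries are blue throughout for Brca1, Brip1, Fancf and Pms2, whose fold changes were −3.31, −3.12, −4.42 and −2.40, and red throughout for Xrcc3, Bard1, Msh6 and Fance.

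Fanconi genes were split. Of 11, 5 were lower (45.5%, against 34.6% of all genes), 1 higher (9.09%, against 31.4%) and 5 not called. Their median log2 fold change was −0.67. Fancf, the adaptor that holds the core complex together, showed the largest fall of all members. It had 168, 174 and 123 counts in the control libraries and 2, 0 and 9 in the lactate libraries. In CPM these were 3.67, 3.37 and 2.61 against 0.0907, 0 and 0.315, where 0 is a count of 0 that allows up to 3 counts. The fitted change was −4.42 ± 0.65 (SE; edgeR adjusted p = 0.00037), and rests on few reads in the lactate libraries: it was −6.0 without lactate replicate 3 and −3.91 without lactate replicate 2. Fance, which binds FANCF directly and links the core complex to FANCD2, was higher instead: it stood at 7.94, 6.39 and 5.81 CPM in the control libraries and 10.3, 9.12 and 15.1 in the lactate libraries and rose by 0.78 ± 0.23 on the log2 scale (SE; edgeR adjusted p = 0.014). Without control replicate 3 Fance was no longer called (edgeR adjusted p = 0.060), nor was it with library totals (−0.06).

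Brip1, the helicase FANCJ that binds BRCA1, stood at 7.55, 8.796 and 11.5 CPM in the control libraries and 1.54, 0.376 and 1.26 in the lactate libraries. The groups were far apart, and Brip1 fell by 3.12 ± 0.42 on the log2 scale (SE; edgeR adjusted p = 0.00023). Fancm, the translocase that finds stalled forks, stood at 13.02, 13.8 and 16.4 CPM in the control libraries and 4.26, 2.68 and 5.59 in the lactate libraries, again without overlap, and fell by 1.78 ± 0.26 on the log2 scale (SE; edgeR adjusted p = 0.00034). The genes of the pathway's substrate pair, which is ubiquitinated to start repair, did not move together. Fanci went from 34.7 ± 5.94 to 18.1 ± 1.89 CPM (SD, n = 3; −0.94 ± 0.16, edgeR adjusted p = 0.00085), whereas Fancd2 was not called, with control libraries at 26.6, 20.2 and 29.1 CPM on either side of lactate libraries at 23.9, 22.2 and 23.8 (−0.12 ± 0.15, edgeR adjusted p = 0.52). Fanci overlaps Polg, which fell too (−0.97 ± 0.12, edgeR adjusted p = 0.00011).

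In the rest of the core complex Fanca was called lower (−0.67 ± 0.20, edgeR adjusted p = 0.017), but not without control replicate 1 (0.054), control replicate 3 (0.074) or lactate replicate 1 (0.057), nor with the trend on transcript length removed (−0.33). The ubiquitin ligase subunit Fancl was at −0.65 and Fancg at −0.67, both short of the threshold with edgeR adjusted p of 0.11 and 0.12. Fancl was called without lactate replicate 1 (−1.01, 0.033) and Fancg without lactate replicate 3 (−0.98, 0.039). Fancc (−0.48 ± 0.29) and Fancb (0.11 ± 0.24) were not called, and Fancb was at −0.10 without lactate replicate 3.

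Among the damage-signalling genes 2 of 4 were lower and 2 not called, with a median of −0.48. Atm, the kinase of double-strand breaks, stood at 34.2, 27.1 and 33.1 CPM in the control libraries and 11.3, 15.5 and 13.2 in the lactate libraries. Every lactate library was below every control library, and Atm fell by 1.24 ± 0.16 on the log2 scale (SE; edgeR adjusted p = 0.00017). Atr, the kinase of stalled forks, stood at 29.3, 23.5 and 25.7 CPM in the control libraries and 19.5, 17.97 and 17.5 in the lactate libraries, also without overlap, and fell less (−0.52 ± 0.13, edgeR adjusted p = 0.0072), to 0.11 and no call with the length trend removed. Atrip, which recruits ATR, was at 0.16 ± 0.27 and −0.06 without control replicate 3. The effector kinase Chek2 was at −0.45 ± 0.21 (edgeR adjusted p = 0.092), with its 3 lactate libraries (2.86, 3.53 and 3.29 CPM) below its 3 controls (5.01, 3.99 and 4.2 CPM).

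Mismatch repair genes all passed the test, 4 lower and 1 higher, with a median of −1.54. Pms2, the nuclease subunit of MutL alpha, stood at 16.1, 15.3 and 16.1 CPM in the control libraries and 2.95, 2.16 and 3.81 in the lactate libraries, and fell by 2.40 ± 0.21 on the log2 scale (SE; edgeR adjusted p = 2.1e-05). Mlh3, the nuclease subunit of MutL gamma, stood at 6.08, 6.39 and 5.64 CPM in the control libraries and 0.816, 1.22 and 1.71 in the lactate libraries, and fell by 2.26 ± 0.29 on the log2 scale (SE; edgeR adjusted p = 0.00016). For both genes every lactate library was far below every control library. Exo1, the exonuclease that removes the strand with the error and also resects breaks, was at −1.54 ± 0.32 (edgeR adjusted p = 0.0024).

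The 2 mismatch-recognition genes went apart. Msh6, which recognises single-base mismatches, stood at 36.8, 32.8 and 40.3 CPM in the control libraries and 66.2, 61.01 and 80.95 in the lactate libraries, and rose by 0.92 ± 0.14 on the log2 scale (SE; edgeR adjusted p = 0.00041). Msh3, which recognises larger loops and competes for the same partner, stood at 7.0, 5.99 and 7.04 CPM in the control libraries and 3.13, 3.904 and 4.23 in the lactate libraries, and fell by 0.83 ± 0.20 on the log2 scale (SE; edgeR adjusted p = 0.0059). Neither pair of groups overlapped. With library totals Msh6 was at 0.07 and not called. Msh6 overlaps Fbxo11, which stood at a similar level and changed by 0.87 ± 0.14 (edgeR adjusted p = 0.00065), and without strand the reads of the 2 genes cannot be told apart where they overlap.

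Of 11 excision repair genes 5 were lower (45.5%, against 34.6% of all genes), 0 higher and 6 not called, and Lig3 was the only one to fall by at least 2-fold. Of 6 genes of nucleotide excision, 3 were lower and 3 not called (median −0.60). Ercc3, a helicase of the transcription factor TFIIH that opens the DNA around a bulky lesion, stood at 26.97, 24.6 and 25.8 CPM in the control libraries and 12.5, 9.88 and 17.9 in the lactate libraries, and fell by 0.94 ± 0.21 on the log2 scale (SE; edgeR adjusted p = 0.0036). Ercc2, the other TFIIH helicase, stood at 14.04, 12.9 and 15.8 CPM in the control libraries and 10.6, 7.06 and 9.79 in the lactate libraries, and fell by 0.64 ± 0.18 on the log2 scale (SE; edgeR adjusted p = 0.014). Ercc6, the CSB protein that restarts stalled transcription, stood at 10.96, 14.2 and 12.7 CPM in the control libraries and 7.57, 7.38 and 10.6 in the lactate libraries (−0.56 ± 0.19, edgeR adjusted p = 0.029). The groups did not overlap in any of the 3 genes. Ercc2 lost its call without control replicate 3 (0.062). Ercc6 lost it without control replicate 2 (0.105) or 3 (0.077) and without lactate replicate 1 (0.086) or 2 (0.076). Ercc2 overlaps Klc3, which was low and fell as well. The nuclease subunit Ercc1 (−0.18 ± 0.11), the nuclease Ercc5 (−0.69 ± 0.27, edgeR adjusted p = 0.052) and the damage verifier Xpa (0.51 ± 0.31) were not called, although Ercc5 was without lactate replicate 2 (−0.99, edgeR adjusted p = 0.010).

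Of 5 base excision genes, 2 were lower (40.0%, against 34.6% of all genes) and 3 not called (median −0.56). Lig3, the ligase that seals single-strand breaks and that mitochondria depend on, stood at 61.6, 71.8 and 68.9 CPM in the control libraries and 17.8, 14.8 and 17.3 in the lactate libraries. It had the smallest p of the members, with groups far apart, and fell by 2.02 ± 0.12 on the log2 scale (SE; edgeR adjusted p = 3.5e-06). Its scaffold Xrcc1 stood at 14.5, 19.3 and 20.7 CPM in the control libraries and 10.1, 12.9 and 12.5 in the lactate libraries and fell by less (−0.62 ± 0.18, edgeR adjusted p = 0.014), a call lost without control replicate 3 (0.060) or lactate replicate 1 (0.053). Parp1, the sensor of strand breaks, stood at 67.5, 60.5 and 74.0 CPM in the control libraries and 56.6, 46.4 and 71.2 in the lactate libraries, which overlapped (−0.21 ± 0.16, edgeR adjusted p = 0.28, and −0.36 and 0.044 without lactate replicate 3). The glycosylases of oxidised bases, Ogg1 (−0.50 ± 0.24) and Neil1 (−0.56 ± 0.25), were not called, with edgeR adjusted p of 0.095 and 0.073. Ogg1 was called without lactate replicate 3 (−0.70, 0.023) and Neil1 without lactate replicate 2 (−0.72, 0.049).

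In end joining the genes whose products bind broken ends fell in RNA and the ligation genes were not called. Of 5, 3 were lower (60.0%, against 34.6% of all genes) and 2 not called (median −0.68). The genes Xrcc6 and Xrcc5 of the Ku subunits, which encircle a DNA end, fell together. Xrcc6 stood at 18.99, 18.6 and 21.0 CPM in the control libraries and 11.6, 10.6 and 12.1 in the lactate libraries (−0.77 ± 0.13, edgeR adjusted p = 0.00086). Xrcc5 stood at 27.4, 27.2 and 27.7 CPM in the control libraries and 17.7, 14.4 and 10.9 in the lactate libraries (−0.94 ± 0.18, edgeR adjusted p = 0.0015). Prkdc, the kinase that Ku recruits, stood at 27.1, 30.6 and 28.04 CPM in the control libraries and 21.8, 20.1 and 11.6 in the lactate libraries, with lactate replicate 3 the lowest, and fell by 0.68 ± 0.22 on the log2 scale (SE; edgeR adjusted p = 0.023). Prkdc lost its call without control replicate 2 (0.069) and was at 0.11 with the length trend removed. Lig4, which makes the final seal, stood at 11.7, 13.2 and 11.2 CPM in the control libraries and 14.2, 15.01 and 16.4 in the lactate libraries. All 3 lactate libraries were above all controls, but the change missed the threshold (0.34 ± 0.14, edgeR adjusted p = 0.058). Lig4 was called higher with RLE factors (0.38, edgeR adjusted p = 0.034), DESeq2 (0.37, adjusted p = 0.038), limma-voom (0.34, adjusted p = 0.050) and the length trend removed (0.54), and lower with library totals (−0.52). Its scaffold Xrcc4 overlapped between groups (0.29 ± 0.34).

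Ratios between partner genes do not depend on the scaling of a library, because both genes are divided by the same total. For 16 pairs of members whose proteins bind each other, a list drawn up after the fold changes had been seen, the FPKM of the first gene was divided by that of the second in each library. With 3 libraries against 3 an exact two-sided permutation test cannot go below 0.1, so the values are given without a test. In 5 pairs all lactate ratios lay below all control ratios, in 2 above and in 9 the groups overlapped. Of single tested genes 72.2% had CPM that did not overlap. That is not a background for ratios, and no share for ratios of other gene pairs was computed. Brca1 over Bard1 was 0.596, 0.696 and 0.612 in the control libraries and 0.0323, 0.0181 and 0.0356 in the lactate libraries, a 22.1-fold drop of the mean. Rad51c over Xrcc3 went from 2.11, 1.66 and 1.82 to 0.192, 0.147 and 0.201, 10.4-fold lower on average. Rad51c was above Xrcc3 in every control library and below it in every lactate library, whereas Brca1 was below Bard1 in all 6.

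Fancf over Fance was 0.847, 0.964 and 0.817 in control and 0.0160, 0 and 0.0367 in lactate libraries, where Fancf is listed at 0 in lactate replicate 2. Lig3 over Xrcc1 went from 1.93, 1.66 and 1.46 to 0.796, 0.414 and 0.637, and Fanci over Fancd2 from 1.56, 1.5 and 1.42 to 0.884, 0.934 and 0.730. Nbn over Mre11 and Atrip over Atr were higher in every lactate library, by 1.31-fold and 1.58-fold on average. A ratio still carries the trend on transcript length, and Mre11 and Atr have longer transcripts than Nbn and Atrip. With that trend removed, the log2 fold changes of Nbn and Mre11 came closer (−0.66 and −0.77, from −0.79 and −1.18). Those of Atrip and Atr did as well (0.29 and 0.11, from 0.16 and −0.52). In the 5 pairs with lower ratios the change of the first gene stayed below that of the second. In the other 9 pairs the libraries of the groups overlapped. Rad51d over Xrcc2 averaged 0.991 ± 0.308 and 0.989 ± 0.337 (SD, n = 3), and the Ku pair Xrcc5 over Xrcc6 averaged 1.09 ± 0.0659 and 1.01 ± 0.263.

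**Figure D3:**
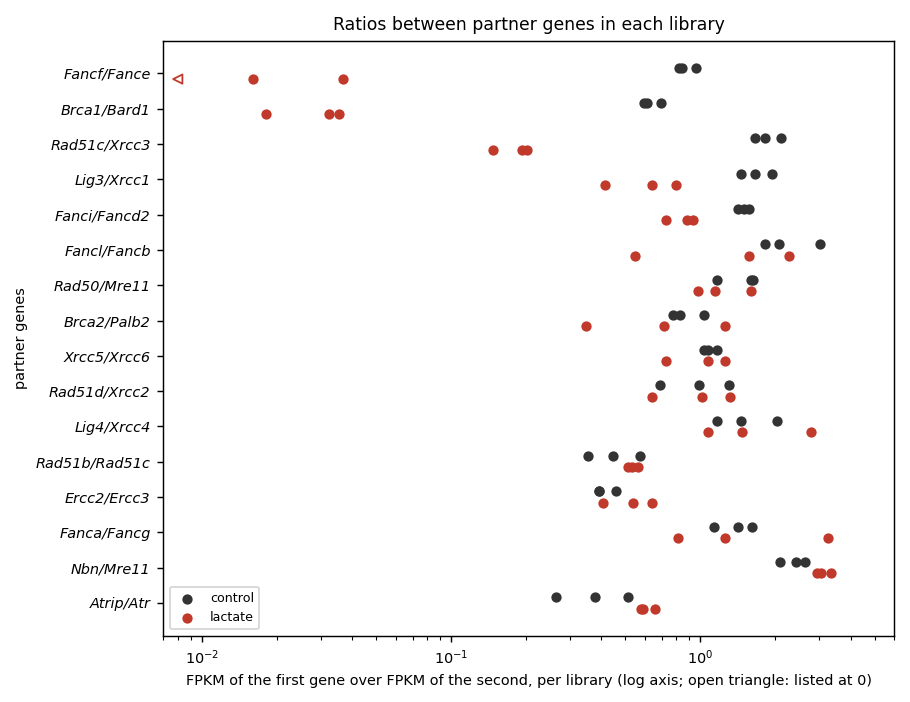
FPKM of one gene over that of its binding partner (horizontal log axis) in each control (black) and lactate (red) library, for 16 pairs ordered by the change of the mean ratio. The open triangle marks a library where the first gene is listed at 0. Fancf/Fance, Brca1/Bard1 and Rad51c/Xrcc3 separate most widely, and in 9 pairs the libraries overlap.

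The promoters of Brca1 and Bard1, whose products bind each other and whose changes had opposite signs, and of Xrcc3 and Msh6, which rose most, are shown as 300 bases each (250 before the start of transcription and 50 from it on), from RefSeq on the rat build GRCr8. The build behind the counts is uncertain, and the counts were not used to place these windows. Capitals mark E2F sites as spelled here (TTTCGCGC, TTTGGCGC, TTTCCCGC or TTTGCCGC, on either strand) and CCAAT boxes (CCAAT, on either strand). No capitals overlap each other. Brca1 lies at chr10:86977532-86977831, minus strand, Bard1 at chr9:80143706-80144005, minus strand, Msh6 at chr6:12333456-12333755, minus strand and Xrcc3 at chr6:136694773-136695072, minus strand, each read 5′ to 3′ along its gene.
Brca1: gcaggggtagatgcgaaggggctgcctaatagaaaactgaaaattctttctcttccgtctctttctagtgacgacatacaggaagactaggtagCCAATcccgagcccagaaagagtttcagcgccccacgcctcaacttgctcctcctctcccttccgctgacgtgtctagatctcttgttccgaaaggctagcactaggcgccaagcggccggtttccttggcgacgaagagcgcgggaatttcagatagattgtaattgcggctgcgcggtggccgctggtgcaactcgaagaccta
Bard1: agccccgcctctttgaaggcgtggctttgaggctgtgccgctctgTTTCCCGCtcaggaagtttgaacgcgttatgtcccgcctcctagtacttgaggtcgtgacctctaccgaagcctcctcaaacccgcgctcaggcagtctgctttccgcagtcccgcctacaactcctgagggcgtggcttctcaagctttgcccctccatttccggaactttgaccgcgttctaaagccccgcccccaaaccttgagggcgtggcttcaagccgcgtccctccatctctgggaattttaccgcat
Msh6: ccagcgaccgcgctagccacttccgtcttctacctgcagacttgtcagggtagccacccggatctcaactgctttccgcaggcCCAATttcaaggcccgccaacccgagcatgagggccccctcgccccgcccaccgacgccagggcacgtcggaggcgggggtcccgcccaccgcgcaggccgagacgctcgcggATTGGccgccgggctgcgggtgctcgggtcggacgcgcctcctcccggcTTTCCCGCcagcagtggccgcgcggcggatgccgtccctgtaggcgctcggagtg
Xrcc3: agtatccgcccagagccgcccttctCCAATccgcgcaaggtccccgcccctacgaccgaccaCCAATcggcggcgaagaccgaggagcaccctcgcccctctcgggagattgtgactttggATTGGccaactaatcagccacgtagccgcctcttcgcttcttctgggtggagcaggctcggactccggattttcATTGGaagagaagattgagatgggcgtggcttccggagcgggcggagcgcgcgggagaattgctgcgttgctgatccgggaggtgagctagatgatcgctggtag
Brca1, which fell, holds 1 CCAAT box and no E2F letters in this window, Bard1, which rose, holds 1 E2F match, Msh6, which rose, holds 1 E2F match and 2 CCAAT boxes, and Xrcc3, which rose, holds 4 CCAAT boxes. Of 46 members with a promoter in this table, 8 (17.4%) hold the E2F letters, against 2.94% of 18999 protein-coding genes. The 7 of these that were tested were Bard1, Msh6, Rad51d, Fancd2, Fancc, Fancl and Atm, of which 2 were higher, 1 lower and 4 not called. A CCAAT box was found in 20 (43.5%) against 39.8%, with 14 lower, 2 higher and 3 not called of 19 tested, and a TATA box (TATAAA) in 0 members against 14.0% of genes. The CHR letters (TTTGAA) were in 6 members (13.0% against 18.1%), of which 5 were lower and 1 higher, and a GC box (GGGCGG) in 28 (60.9% against 44.1%), with 16 lower, 3 higher and 8 not called of 27 tested. These 5 motifs were searched on both strands, and all were counted whether or not they overlapped. Of all 51 members tested 56.9% were lower and 7.84% higher, and of all tested genes 34.6% and 31.4%. Calls among all genes that hold each motif were not counted, and a link between motif and call was not tested. These matches are letters in a window, not measured binding.

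The pathways were compared by their medians, which were not tested against each other. Each gene was counted in a single pathway, although some, such as Exo1 and Brip1, act in another as well. Other assignments were not tried. Minus the median of all tested genes, that of mismatch repair was −1.44, of homologous recombination (core, MRN and RecQ genes, 15 in all) −1.20, of end joining −0.58, of Fanconi genes −0.56, of excision repair −0.46 and of damage signalling −0.38. With library totals, which shift all genes by a similar step, these differences were −1.44, −1.18, −0.61, −0.58, −0.47 and −0.39. The order of the medians changed with other settings. With limma-trend on log2(FPKM + 1) recombination was lowest (−1.13), ahead of excision (−1.08) and mismatch (−1.07). Without lactate replicate 3 the fall of end joining (−0.42) was smaller than those of excision (−0.63) and Fanconi genes (−0.52). Recombination had 10 of 15 genes lower and 2 higher, Fanconi 5 and 1 of 11, mismatch 4 and 1 of 5, excision 5 and 0 of 11, end joining 3 and 0 of 5 and damage signalling 2 and 0 of 4, where 34.6% of all genes were lower and 31.4% higher. The lower share was 66.7% in recombination and 45.5% in both Fanconi and excision repair. Falls of at least 2-fold made up 9 of the 10 lower calls in recombination, 3 of 5 in Fanconi and 3 of 4 in mismatch, but 1 of 5 in excision (Lig3), 0 of 3 in end joining and 1 of 2 in damage signalling (Atm). In all, 17 members fell and 1 rose by at least 2-fold, where 22.5% and 18.1% of all genes did.

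**Figure D4:**
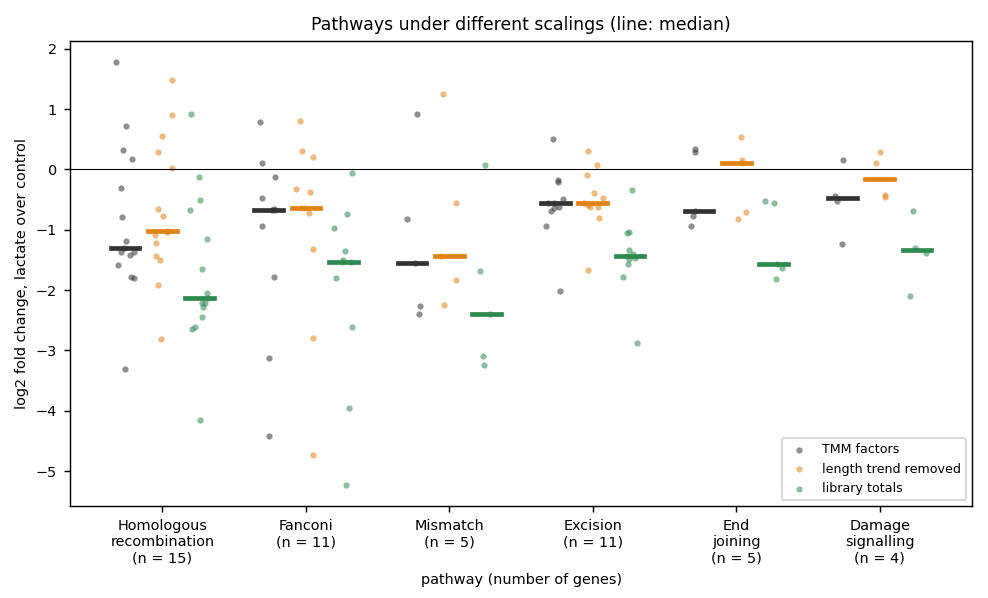
Log2 fold change of each repair gene (points) and the median of each pathway (lines) with TMM factors (black), with the trend on transcript length removed (orange) and with library totals (green). Library totals lower every pathway by a similar step, and removal of the length trend moves the end joining median from −0.68 to 0.11.

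Fold changes in these libraries followed transcript length, and the members as a set have long transcripts. Their median relative length was 1.41, against 1.02 for all tested genes, though that of the excision members was 0.97. The 91 other repair genes tested had a median of 1.01. The longest 20% of tested genes had a median log2 fold change of −0.52 and 49.5% of them were lower, against 0.47 and 17.9% in the shortest 20%. Of the 51 members 20 were among the longest 20%, 16 of them lower and 1 higher, with a median of −1.06, and 5 in the shortest. With the trend on length removed, which left 63.9% of all genes called, 26 members were lower (32.9% of all genes) and 5 higher (31%), and the members' median minus that of all genes was −0.51. For mismatch repair and recombination this difference was then −1.35 and −0.94, for Fanconi −0.557, for excision −0.465 and for damage signalling −0.072. For end joining it was 0.20. The middle gene of end joining, Prkdc, has the longest transcript of the 51 members by this measure. Atm (−0.46), Brca2 (−1.09) and Brca1 (−2.81) were still called lower. Atr (0.11) and Prkdc (0.11) were not, with their signs turned, and Ercc2, Ercc6 and Fanca lost their calls as well. Ercc1 (−0.47, edgeR adjusted p = 0.0058) and Ogg1 (−0.62, 0.048) were then called lower. In 5 equal bins of mean level, 21 members were in bin 2 from the bottom, where the median of all genes was −0.53 and that of the members −0.67. Bins 3 and 4 held 14 and 12 members, with medians of −0.70 and −0.74, against −0.25 and 0.05 for all genes. In bin 2, 9 of the 21 members were called lower, where 45.5% of all genes were. In bins 3 and 4, 10 of 14 and 8 of 12 were, against 42.2% and 33.7% of all genes. The part of length and level in the pathway differences was not tested.

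**Figure D5:**
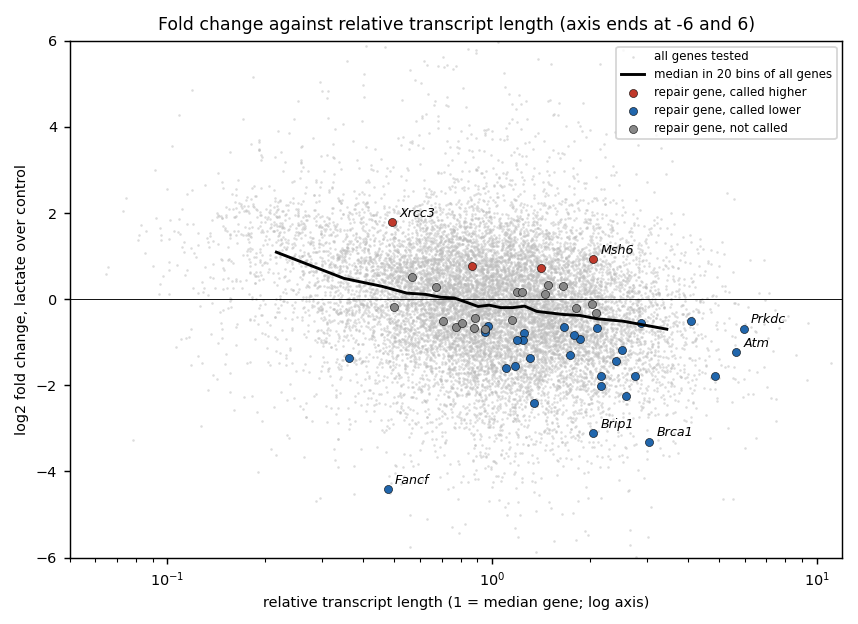
Log2 fold change (vertical axis) against relative transcript length (log axis, 1 for the median gene) for 13747 tested genes (grey), their median in 20 bins (line) and the repair genes (coloured by call). Of the 51 repair genes 20 are among the longest 20% of genes, where the line is below 0, and Brca1, Brip1 and, among short transcripts, Fancf lie far below it.

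Per transcript length, the order of the members changed with lactate. In FPKM, which allows levels of different genes to be compared within a library, Ercc1 led the controls at 38.8 ± 1.69 (SD, n = 3), ahead of Parp1 at 22.7 ± 2.52, Lig3 at 19.0 ± 1.03 and Nbn at 17.5 ± 0.253, with no overlap between these neighbours. Xrcc5, Xrcc6, Ercc3, Xrcc1, Fanci, Msh6 and Rad50 followed, from 14.0 to 10.7, and each overlapped the next. In the lactate libraries Ercc1 was still first, at 18.8 ± 2.76. Msh6 (11.4 ± 2.61) came next, up from place 10, and overlapped Parp1 (10.8 ± 3.15). Bard1 was at place 4 (7.83 ± 2.18), from 15, Xrcc3 at 6 (4.94 ± 0.381), from 41, and Fance at 7, from 21. Lig3 went from place 3 to 15, at 2.47 ± 0.649. Because FPKM is scaled by library total, its absolute level is lower in lactate libraries for most genes, and only the order within a group is read here.

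Repair genes that were not among the members were closer to the background. Of 91 tested from a list of 94, 31 were lower (34.1%, against 34.6% of all genes), 23 higher (25.3%, against 31.4%) and 37 not called. Their median was −0.13, near the −0.10 of all genes. Within recombination and Fanconi repair the balance was again to the lower side, 10 of 19 (52.6%) against 5 higher (26.3%), with a median of −0.77. Slx4, the scaffold of the nucleases that resolve crossovers, stood at 28.9, 31.9 and 32.4 CPM in the control libraries and 9.07, 9.83 and 10.1 in the lactate libraries (−1.68 ± 0.12, edgeR adjusted p = 8.2e-06). Mus81, one of those nucleases, fell by 1.82 ± 0.17, the core complex subunit Faap100 by 2.90 ± 0.23 and Rbbp8, the CtIP protein that starts resection with MRN, by 1.24 ± 0.12. Sfr1, a recombination factor that binds SWI5, rose by 1.06 ± 0.10, but was not called with library totals (0.20).

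Of 15 other damage-signalling genes tested 3 were higher, 5 lower and 7 not called (median −0.11). Mdc1, which reads phosphorylated H2AX at a break and holds MRN there, stood at 25.3, 31.9 and 36.6 CPM in the control libraries and 3.63, 3.67 and 3.495 in the lactate libraries and fell by 3.12 ± 0.17 on the log2 scale (SE; edgeR adjusted p = 2.7e-06). Tp53bp1, which protects ends from resection and so favours end joining, stood at 41.3, 45.5 and 40.8 CPM in the control libraries and 81.05, 83.7 and 98.1 in the lactate libraries and rose by 1.04 ± 0.11 on the log2 scale (SE; edgeR adjusted p = 6.6e-05), though with library totals it was not called (0.19). The groups overlapped for neither gene. Rev3l, the catalytic subunit of the bypass polymerase zeta, fell by 1.82 ± 0.15. Its group of direct reversal and lesion bypass genes had 3 lower (25.0%) and 4 higher (33.3%) of 12.

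Nucleotide excision genes outside the members had 7 higher (43.75%) and 3 lower (18.75%) of 16 (median 0.16). The TFIIH subunits Gtf2h5 (1.22 ± 0.15) and Mnat1 (0.97 ± 0.11) were called higher. Of the other TFIIH genes on the list Gtf2h1 (0.72) and Ccnh (0.65) were higher, Gtf2h3 lower (−1.14) and Gtf2h2, Gtf2h4 and Cdk7 not called. With library totals Gtf2h5 (0.36) and Mnat1 (0.11) were not called. Base excision genes outside the members had 3 higher (15.8%) and 5 lower (26.3%) of 19. Of 2 AP endonuclease genes, Apex2 rose by 1.32 ± 0.15 and Apex1 was not called (−0.08 ± 0.12, edgeR adjusted p = 0.58). Of 20 tested replication and cycling genes, listed here because many repair genes share their cell cycle timing, 13 were lower (65.0%, against 34.6% of all genes), 5 higher (25.0%, against 31.4%) and 2 not called (median −0.75). The part of a change in cycling cells in the repair genes' fall was not tested.

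In the authors' deposited table, 28 of the 51 members have an adjusted p under 0.05 with a negative log2 fold change and 4 with a positive one, where 51.6% of its 17273 genes pass, 28% lower and 23.6% higher. The median log2 fold change of the members in the authors' deposited table is −0.705, against −0.164 for all its genes. Of the 51 members, 29 overlap at least 1 other gene in the rat annotation GRCr8. The use of strand in counting is not given in the sources used here, so reads in such overlaps are uncertain.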

How the data were processed

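RNA was measured by sequencing in 3 control and 3 lactate libraries, grouped by their titles. The authors deposited raw read counts per gene, FPKM (counts scaled by length and library total) and their own comparison with p-values and log2 fold changes, per the file headers. For the aligner, the counting tool and its strand setting nothing is given in the sources used. Only mouse builds (GRCm38 and mm10) appear in the submitters' processing notes, although the samples are rat, so the build behind the counts is uncertain.

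Deposited counts were fitted on the whole table with edgeR 4.0.16 in R 4.3.3 (glmQLFit and glmQLFTest, TMM factors, filterByExpr with a minimum count of 10, group as the only term). Of 17273 genes 13747 were tested, with Benjamini-Hochberg adjustment over all of them. The SE of a change was derived from the test, as the size of the log2 fold change over the square root of the F statistic. The code was tested on simulated data. There, few genes were changed, as many up as down, or a trend on length was planted, so that test does not bear on the choice of scaling. Relative transcript length came from counts over FPKM, and the length trend was removed with lowess offsets. The fit was repeated with other factors (RLE, upper-quartile, none), with 2 other filters, with DESeq2 1.42.0, limma-voom and limma-trend (limma 3.58.1) on log2(FPKM + 1) and log2(FPKM + 0.1), a replicate block and each library left out.

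Members, groups and other lists were chosen with earlier results of these data known. Full values are given for up to 3 called members of each of 9 groups with the smallest p, the called member most against its group, and up to 6 other repair genes called in each direction. Library values of other members, and the partner pairs, were added after their values were seen. Promoters came from RefSeq (GRCr8), matched by symbol for 46 of 53 members. Libraries of the same number did not deviate together (r = 0.0145, 0.0469 and 0.0937), so they were not treated as pairs.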

Additional observations from a re-analysis of the deposited data

How the results depend on the processing

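Scaling, the FPKM pseudocount, transcript length and single libraries all changed some results. With library totals, 1722 genes were called higher and 8492 lower, 1 member was higher and 44 lower, the median was −1.54 for all members, −2.13 for homologous recombination, −1.53 for Fanconi, −2.40 for mismatch, −1.43 for excision, −1.56 for end joining and −1.34 for damage signalling, and the sign turned for Bard1 (−0.13), Rad51d (−0.67), Xrcc2 (−0.51), Fancb (−0.73), Fance (−0.060), Atrip (−0.69), Xpa (−0.35), Xrcc4 (−0.56) and Lig4 (−0.52). With limma-trend on log2(FPKM + 1), 1781 genes were called higher and 8759 lower, 1 member was higher and 44 lower, the median was −1.03 for all members, −1.13 for homologous recombination, −0.97 for Fanconi, −1.07 for mismatch, −1.08 for excision, −0.99 for end joining and −0.93 for damage signalling, and the sign turned for Rad51d (−0.48), Xrcc2 (−0.45), Fancb (−0.46), Fance (−0.089), Atrip (−0.37), Xpa (−0.19), Xrcc4 (−0.45) and Lig4 (−0.43). With limma-trend on log2(FPKM + 0.1), 1770 genes were called higher and 8737 lower, 1 member was higher and 43 lower, the median was −1.52 for all members, −2.0 for homologous recombination, −1.52 for Fanconi, −2.36 for mismatch, −1.36 for excision, −1.51 for end joining and −1.31 for damage signalling, and the sign turned for Rad51d (−0.66), Xrcc2 (−0.64), Fancb (−0.73), Fance (−0.11), Atrip (−0.62), Xpa (−0.30), Xrcc4 (−0.63) and Lig4 (−0.52). With upper-quartile factors, the median was −0.83 for all members, −1.48 for homologous recombination, −0.72 for excision, −0.84 for end joining and −0.64 for damage signalling, and the sign turned for Fancb (−0.051). With RLE factors, the median was −0.44 for damage signalling. With limma-voom, the median was −0.76 for all members. With the replicate block, the median was −0.73 for all members. With the length trend removed, the median was −0.60 for all members, −1.03 for homologous recombination, 0.11 for end joining and −0.16 for damage signalling, and the sign turned for Blm (0.024), Fancd2 (0.21), Atr (0.11), Parp1 (0.069) and Prkdc (0.11). Without 1 library at a time, 3922 to 4489 genes were higher and 4091 to 4918 lower, 3 to 4 members higher and 24 to 32 lower, and the medians ran from −0.72 to −0.66 for all members, −1.41 to −1.13 for homologous recombination, −0.71 to −0.52 for Fanconi, −1.92 to −1.27 for mismatch, −0.65 to −0.47 for excision, −0.77 to −0.42 for end joining and −0.55 to −0.39 for damage signalling. Over these fits Atrip ran from −0.056 to 0.32, negative without control replicate 3, and Xrcc2 from −0.14 to 0.56 and Fancb from −0.099 to 0.22, both negative without lactate replicate 3. Upper-quartile factors left 35 members lower, with Blm, Chek2, Ercc1, Ercc5, Ogg1 and Neil1 added, and RLE factors, DESeq2 and limma-voom each left 5 higher, with Lig4 added. limma-voom also called Fancl and Ercc5 lower, and the CPM filter Ercc5. Leaving out 1 library ended the call of Palb2, Rad51b, Fanca, Fance, Ercc2, Ercc6, Xrcc1 or Prkdc. A 2-fold change, a threshold added after seeing the data, left 17 members lower and 1 higher. The replicate block, RLE factors, the other filters and DESeq2 turned no member's sign, and the block changed no member's call (4 higher and 29 lower). Where 2 libraries of a group remained, the spread was pooled over the fit. The cause of these shifts was not tested. Depth limits Fancf, with 11 lactate counts.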

Other observations

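Genes of 2 enzymes that clear proteins trapped on DNA moved in opposite directions, a contrast picked after the values were seen. Tdp1, which removes topoisomerase I from DNA ends, stood at 6.98, 10.3 and 10.8 CPM in the control libraries and 1.27, 0.894 and 1.75 in the lactate libraries and fell by 2.83 ± 0.30 on the log2 scale (SE; edgeR adjusted p = 5.6e-05). Tdp2, which removes topoisomerase II, stood at 13.4, 11.3 and 11.7 CPM in the control libraries and 46.8, 47.4 and 58.3 in the lactate libraries and rose by 2.07 ± 0.14 on the log2 scale (SE; edgeR adjusted p = 5.3e-06), and at 1.22 it was also called with library totals. The groups overlapped for neither gene. The pair had the largest fall and the largest rise among the 19 other base excision and end-cleaning genes tested.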
